A study of Homo sapiens with 6 samples.

Results

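Transcript counts of 35 genes of homologous recombination and the Fanconi anemia pathway were followed in RPE-1, a telomerase-immortalised human line from the retinal pigment epithelium. The genes were a fixed list of names, looked up by Ensembl gene ID with the version dropped, and all 35 were found among 60252 IDs. The 6 conditions were cells held unreleased in thymidine (arrested), cells released for 4 h with the ATR inhibitor AZ20 (4h_ATRi) or its solvent (4h_DMSO), cells released for 6 h with AZ20 (6h_ATRi) or its solvent (6h_DMSO), and asynchronous cells (cycling). Arrest was 24 h in 2 mM thymidine, and release followed 3 washes. From 1 h after the wash the released cells received 2 µM AZ20 or DMSO, for 3 h in the 4 h cells and for 5 h in the 6 h cells. There were 2 libraries of 6h_ATRi and 3 of each other condition, with columns lettered A, B and C. The letters were taken as the independent experiments, which the labels do not state. Statements by experiment and fits with the experiment as a block rest on that reading. All libraries came from a single line, and the series asks which genes ATR controls through transcription.

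Homologous recombination repairs a broken or collapsed replication fork by copying the sister chromatid. A broken end is trimmed, BRCA2 and its partners prepare the single strand for pairing with the sister, and the joint is then dissolved or cut. The Fanconi proteins recognise crosslinked DNA at forks, attach ubiquitin to FANCD2 and FANCI, and hand the lesion to nucleases and to recombination. ATR, the kinase activated at stalled forks, phosphorylates several of these proteins. Many of the genes are transcribed most in late G1 and S phase.

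Libraries held 1758747 to 2357561 counts. CPM denote counts brought to one library size with TMM factors, and a count of 0 allows up to 1.33 to 1.78 CPM, for counting error only. Of 12 retinal pigment epithelium markers, BEST1 (12828 CPM), KRT8 (3839), PMEL (323), KRT18 (282.5), SERPINF1 (19.95), MITF (4.76) and TYRP1 (4.18) had counts in every library, whereas RPE65, TTR and RLBP1 had 2, 1 and 7 counts in all 17 libraries together. Among markers of other cell types CD3E, CDH5 and KRT5 were at 0 in 17 of 17 libraries, but ACTA2 (25.8 CPM), COL1A1 (25.6) and CRX (11.9) had counts in every library and GFAP averaged 3.09 CPM. These marker counts carry the same doubt about strand as the repair genes, described next. Changes with the cell cycle were visible in the libraries: 24 G2 and mitosis markers summed to 574 ± 43.5 CPM in arrested cells, 1401 ± 76.5 in 4h_ATRi, 844 ± 27.4 in 4h_DMSO, 1720 ± 22.1 in 6h_ATRi, 1215 ± 94.2 in 6h_DMSO and 859.6 ± 59.6 in cycling cells (SD over the libraries of a condition). The 24 S phase markers summed to 515 ± 24.6, 336 ± 29.3, 411 ± 45.4, 319 ± 18.2, 334 ± 16.3 and 526 ± 64.9 CPM in the same order.

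The recombination and Fanconi genes took 0.108% to 0.138% of the counts of a library. Of the 35 genes, 17 have an exon overlapped by an exon of another feature on the opposite strand in the GENCODE annotation of GRCh38, and 18 have none. The 17 with such an overlap held 94.5% of the 35 genes' counts, and 6 of them (EME1, XRCC3, FANCL, FANCI, FANCA and RAD54L) held 87.1%. The 18 without an overlap held 5.48%. How strand was set in the counting is not given, and counts of a gene may lie mainly on features of the other strand. How far they do was not measured over all genes. Reads counted on an overlapped gene may therefore come from its partner, and the source cannot be told apart. The same doubt covers the opposite features, whose counts may be reads of the repair genes, and the 18 genes without an overlap, such as RBBP8 and NBN, whose counts may be only a minor part of their reads. Counts are not scaled for gene length, so they are compared here between libraries and not as levels between genes.

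The overlap gave 20 pairs with 20 opposite features. In 10 pairs the opposite feature drew more counts than the repair gene in every library, and in 5 pairs the repair gene drew more in every library. FANCD2, the protein that receives the Fanconi ubiquitin mark, averaged 4.87 CPM, and FANCD2OS on its opposite strand averaged 166 CPM. FANCI, the partner of FANCD2, averaged 142 CPM, opposite POLG, the mitochondrial DNA polymerase, with 337 CPM. FANCA, a scaffold of the Fanconi core complex, averaged 120.3 CPM opposite ZNF276 with 245 CPM. RAD54L, a motor protein of strand exchange, averaged 50.7 CPM opposite LRRC41 with 203 CPM. XRCC3, a protein of strand exchange, averaged 295 CPM opposite the kinesin light chain KLC1 with 239.96 CPM. FANCL, the ubiquitin ligase of the core complex, averaged 149.8 CPM opposite the kinase VRK2 with 106 CPM. EME1, a nuclease subunit, averaged 332 CPM opposite LRRC59 with 139.8 CPM.

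**Figure D1:**
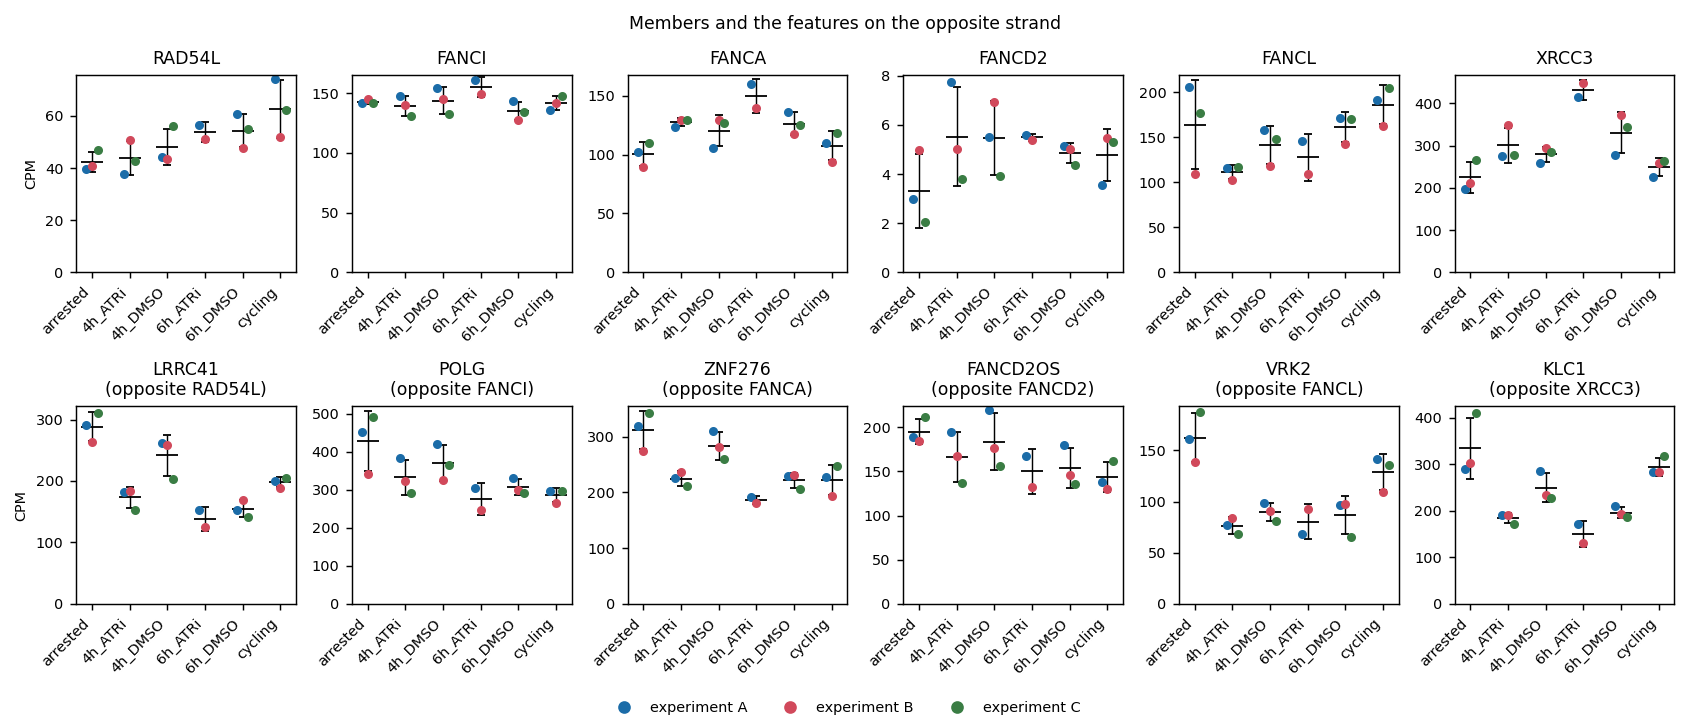
CPM of 6 repair genes (upper panels) and of the feature on the opposite strand of each (lower panels) in the 6 conditions; points are libraries coloured by experiment, bars are the mean and SD. LRRC41 and KLC1 were highest in arrested cells and low at 6 h, while RAD54L and XRCC3 on the other strand had their lowest means in arrested cells.

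The filter on low counts kept 13510 features, among them 23 of the 35 genes, 10 without and 13 with an opposite exon. The other 12 (PALB2, RAD51AP1, RAD51B, RAD51C, RAD51D, RAD54B, RMI1, RMI2, FANCB, FANCE, FANCF and FANCM) had 0 to 11 counts in a library and mean levels of 0.331 to 3.02 CPM, and were not tested. In all, 11 genes were at 0 in at least 1 library. Among the 18 genes without an opposite exon the highest mean was 13.3 CPM, that of NBN.

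The upstream sequence is shown for RBBP8, RAD54L and FANCA. RBBP8 was the only gene of the 35 that edgeR called with all 17 libraries, the filter above, TMM factors and no experiment block. The windows of RAD54L and FANCA hold matches to motifs searched below, in RAD54L a CCAAT box only. The windows are the 250 bases before the outermost RefSeq start on GRCh38.p14, printed on the strand of the gene. Capitals mark motif matches. RBBP8 lies at chr18:22933078-22933327 (+), RAD54L at chr1:46247438-46247687 (+) and FANCA at chr16:89816648-89816897 (-).
RBBP8: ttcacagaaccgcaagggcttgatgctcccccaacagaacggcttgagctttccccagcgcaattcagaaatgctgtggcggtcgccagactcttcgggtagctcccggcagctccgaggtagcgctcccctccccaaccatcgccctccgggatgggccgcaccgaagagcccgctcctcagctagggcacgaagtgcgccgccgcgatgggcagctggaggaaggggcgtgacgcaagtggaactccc
RAD54L: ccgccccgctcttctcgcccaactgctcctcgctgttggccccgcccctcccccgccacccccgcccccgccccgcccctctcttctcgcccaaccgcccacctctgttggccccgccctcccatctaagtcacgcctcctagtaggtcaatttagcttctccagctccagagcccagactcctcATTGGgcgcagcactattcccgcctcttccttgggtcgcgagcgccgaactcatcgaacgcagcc
FANCA: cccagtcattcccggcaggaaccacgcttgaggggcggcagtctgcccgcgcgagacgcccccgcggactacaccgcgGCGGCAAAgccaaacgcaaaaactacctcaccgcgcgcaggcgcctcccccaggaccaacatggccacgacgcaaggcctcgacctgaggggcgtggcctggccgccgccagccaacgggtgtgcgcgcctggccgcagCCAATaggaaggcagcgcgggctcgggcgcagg

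Motifs were searched on both strands in windows of the same length. The E2F words were TTTGGCGC, TTTGCCGC, TTTCGCGC and TTTCCCGC, the CCAAT box was CCAAT, and the cell cycle homology region (CHR) was TTTGAA. Of the 35 genes 31 had windows; RMI2, RAD54B, NBN and FANCI were the others. An E2F word lay in a window of FANCA, FANCC and RMI1, 3 of 31 genes (9.68%), against 3.40% of all 27305 genes. A CCAAT box lay in windows of 14 of 31 (45.2%), against 37.0% of all genes. A CHR lay in windows of 3 of 31 (9.68%; BRIP1, FANCC and UBE2T), against 16.1% of all genes. RBBP8 had none of these words in its window, RAD54L had a CCAAT box 65 bases before the start, and FANCA had an E2F word and a CCAAT box that do not overlap. These are matches of letters and were not tested as sites.

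With AZ20 at 4 h none of the 23 tested genes passed the test, in either direction. Differences ran from -1.35 for RBBP8 to 0.52 for FANCG on the log2 scale (4h_ATRi over 4h_DMSO), with a median of 0.02 against -0.01 over all features tested. A call is an adjusted p under 0.05 in edgeR's quasi-likelihood test with Benjamini-Hochberg adjustment over all 13510 features, and 0.311% of them were called. At an unadjusted p under 0.05 there were 0 higher genes and 1 lower gene (RBBP8), beside 5.596% of all features, and DESeq2 called 0. Here and below, genes to which DESeq2 gave no adjusted p count as not called, and their number is not given. The share of all features that DESeq2 called is not given either, so the shares printed are those of edgeR. With the experiment as a block 1.75% of features and 0 of the 23 genes were called. In the same libraries 8 of 24 G2 and mitosis markers and 0 of 22 tested S phase markers were called higher.

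With AZ20 at 6 h none of the 23 genes passed the test either, and 0.0074% of all features did. The differences ran from -1.02 for BRCA2 to 0.87 for BARD1 (6h_ATRi over 6h_DMSO), with a median of 0.07 against 0.01 over all features. XRCC3 alone had an unadjusted p under 0.05, on the higher side, beside 4.80% of all features, and DESeq2 called 0. With the block 0.533% of features and 0 of the genes were called. The response at 6 h minus the response at 4 h was called for 0 of the 23 genes and 0% of all features, and DESeq2 also called 0, with 0 genes under 0.05 before adjustment. With the block 0.0444% of features and 0 genes were called for that difference. The 6h_ATRi group has only experiments A and B, which limits what these fits could detect.

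**Figure D2:**
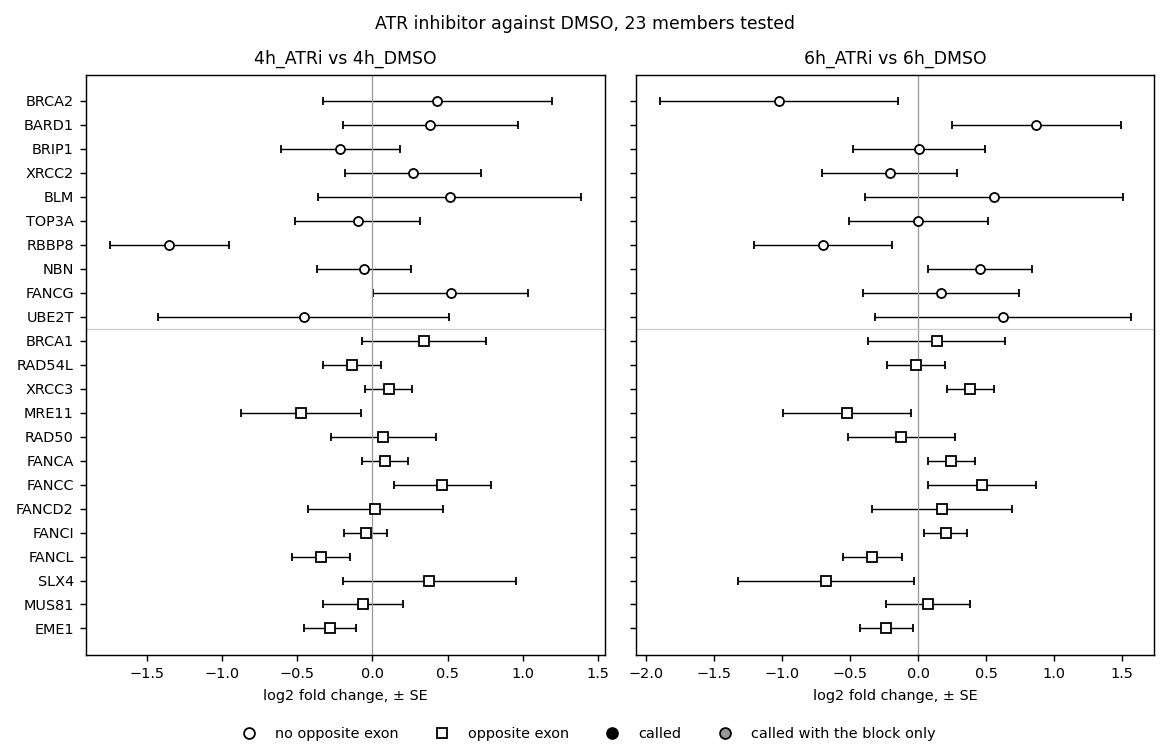
Log2 fold change with its SE of the 23 tested genes for AZ20 against DMSO at 4 h (left) and at 6 h (right); circles have no opposite exon, squares have one. No symbol is filled, and RBBP8 at 4 h (-1.35) lies farthest from 0 among all the values.

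In arrested cells against cycling cells RBBP8 was higher and no other gene passed the test, beside 1.03% of all features. Before adjustment 1 of the 23 genes was higher and 3 were lower at a p under 0.05, beside 9.89% of all features. The differences ran from -0.64 for MUS81 to 1.51 for RBBP8 (arrested over cycling), with a median of 0.20 against -0.01 over all features. Of the 10 genes without an opposite exon 9 had positive values, and of the 13 with one 5 did. With the experiment as a block 5.64% of features were called, among them RBBP8 higher and EME1 and RAD54L lower in arrested cells. DESeq2 called 1 gene, RBBP8, and its share over all features is not given here. Of the 14 tested opposite features 0 passed edgeR, although 4 higher ones had p under 0.05 before adjustment; with the block LRRC41, ZNF276, POLG and FANCD2OS were called higher in arrested cells, and DESeq2 called 3.

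At 4 h of release with DMSO none of the genes passed the test against arrested cells, beside 0.74% of all features. At an unadjusted p under 0.05 there were 1 higher (MUS81) and 1 lower (BRCA1) of 23, beside 9.67% of all features, and DESeq2 called 0. With the block 4.77% of features and 1 gene, MUS81, were called, on the higher side. The median over the 23 genes was 0.02 against 0.00 over all features, and it was -0.28 over the 10 genes without an opposite exon against 0.21 over the 13 with one (4h_DMSO over arrested).

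At 6 h of release with DMSO RBBP8 was lower than in arrested cells and no other gene passed the test, beside 2.32% of all features. Before adjustment 3 of the 23 genes were higher and 2 lower at a p under 0.05, beside 11.9% of all features. Values ran from -1.497 for RBBP8 to 1.85 for SLX4 (6h_DMSO over arrested). With the block 7.71% of features and 4 genes were called, XRCC3 and SLX4 higher and RBBP8 and BRCA1 lower. DESeq2 called 1 gene, XRCC3, and its share over all features is not given here. Among the 14 tested opposite features, VRK2, LRRC41 and KLC1 were called lower.

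At 6 h against 4 h of release, both with DMSO, 0 of the 23 genes and 0.0814% of all features were called. No gene was higher at an unadjusted p under 0.05 and 3 of 23 were lower, beside 4.97% of all features, and DESeq2 called 0. With the block 1.04% of features and 0 genes were called. These comparisons share libraries, so their values for a gene are given side by side and are not independent of each other.

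**Figure D3:**
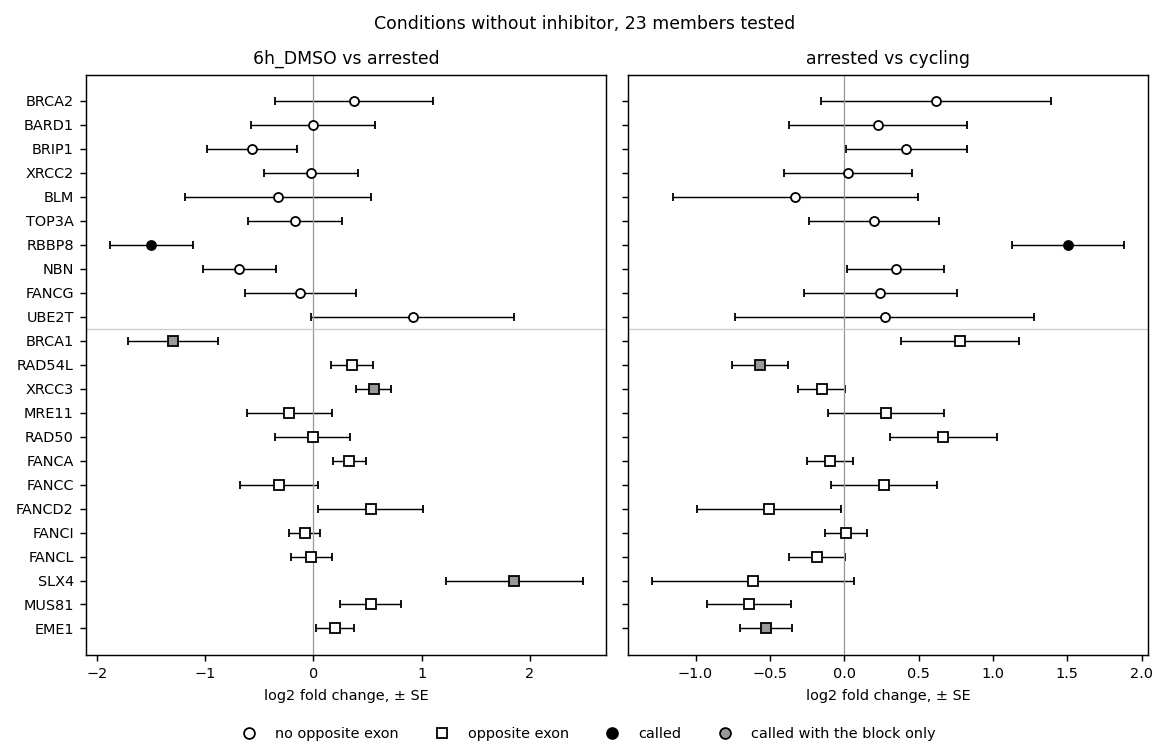
Log2 fold change with its SE of the 23 tested genes for 6h_DMSO over arrested cells (left) and arrested over cycling cells (right); black symbols were called, grey ones only with the experiment as a block. RBBP8 lies at -1.497 and at 1.51, and SLX4 at 1.85 in the left panel.

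The 18 genes without an opposite exon summed to 82.2 ± 9.26 CPM in arrested cells, 69.0 ± 8.07 in 4h_ATRi, 72.9 ± 3.60 in 4h_DMSO, 63.7 ± 18.1 in 6h_ATRi, 61.3 ± 4.87 in 6h_DMSO and 60.2 ± 4.60 in cycling cells. The 6h_DMSO libraries lay between 56.4 and 66.2 CPM, below all arrested libraries. Arrested libraries lay between 71.8 and 89.4 CPM, above the cycling ones at 55.0 to 63.8 CPM. The 17 genes with an opposite exon summed to 1057 ± 113 CPM in arrested cells, 1119 ± 13.4 in 4h_ATRi, 1178 ± 52.9 in 4h_DMSO, 1293 ± 55.4 in 6h_ATRi, 1233 ± 27.5 in 6h_DMSO and 1255 ± 93.1 in cycling cells. The sums of both classes are descriptions without a test, and the mean of the first was highest and of the second lowest in arrested cells. The 14 tested opposite features summed to 2272 ± 246 CPM in arrested cells, 1688 ± 144 in 4h_ATRi, 1955 ± 169.8 in 4h_DMSO, 1469 ± 140.5 in 6h_ATRi, 1668 ± 86.6 in 6h_DMSO and 1790.2 ± 112 in cycling cells. In bulk RNA a lower level per cell and fewer cells in a cycle phase cannot be told apart.

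**Figure D4:**
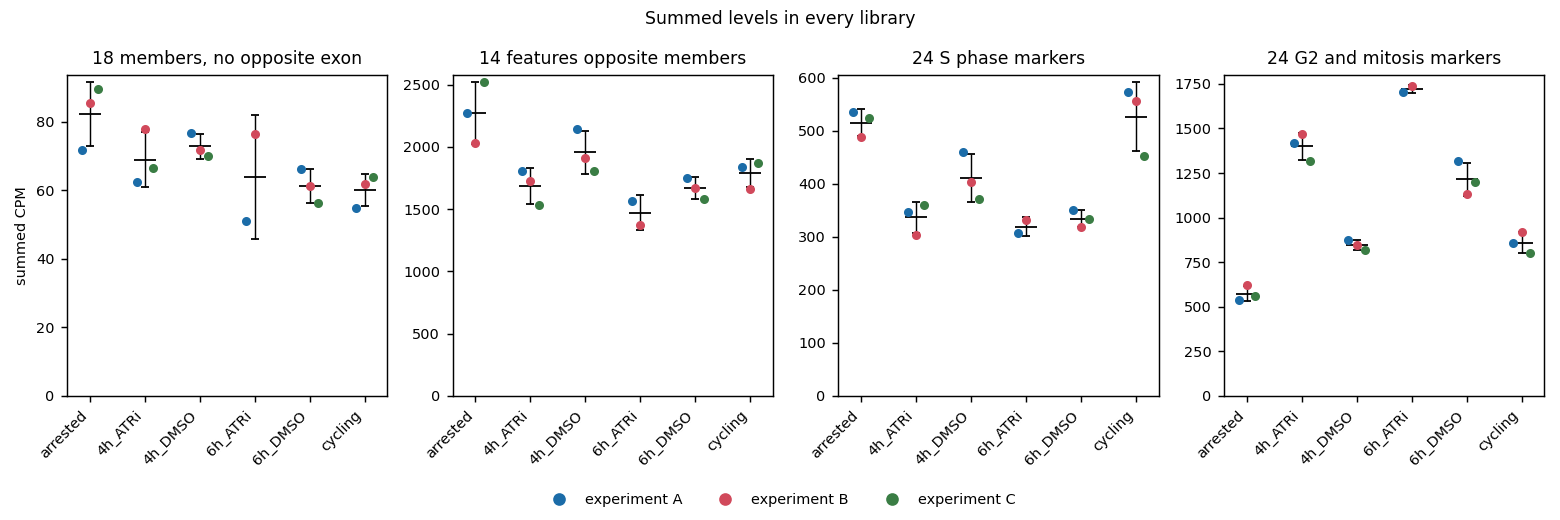
Summed CPM in every library of the 18 genes without an opposite exon, of 14 features opposite repair genes, and of 24 S phase and 24 G2 and mitosis markers; points are libraries coloured by experiment, bars the mean and SD. The first sum runs from 71.8 to 89.4 CPM in arrested cells and from 55.0 to 63.8 CPM in cycling cells.

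End resection is begun by MRE11, RAD50 and NBN, a complex that binds the break, together with RBBP8 (CtIP), the cofactor that switches on its nuclease. RBBP8 has no opposite exon. It had 9.49, 14.4 and 21.8 CPM in arrested cells A, B and C, 4.56, 4.56 and 3.80 CPM in 4h_ATRi, and 12.5, 13.4 and 7.38 CPM in 4h_DMSO. It had 3.36 and 3.23 CPM in 6h_ATRi, 3.73, 7.03 and 5.48 CPM in 6h_DMSO, and 5.76, 4.98 and 5.31 CPM in cycling cells. Every arrested library was above every 6h_DMSO, cycling and inhibitor-treated library, and overlapped those of 4h_DMSO. These levels rest on 6 to 43 counts a library.

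RBBP8 fell by 1.497 ± 0.38 on the log2 scale in 6h_DMSO relative to arrested cells (adjusted p = 0.0309, and 0.00364 with the block). It was higher by 1.51 ± 0.38 in arrested cells than in cycling cells (adjusted p = 0.0467, and 0.00503 with the block). Both calls were lost when single libraries were left out: the adjusted p ran from 0.0246 to 0.283 for 6h_DMSO over arrested, called in 2 of 6 such fits (without arrested A or 6h_DMSO B), and from 0.0285 to 0.325 for arrested over cycling, called in 1 of 6 (without arrested A). With no filter on low counts the adjusted p was 0.0544 and 0.0660, and with a minimum count of 30 it was 0.0814 and 0.09995, so both calls were lost there too; without experiment B arrested over cycling had 0.0525. Without arrested C, the library with the highest value, the differences were -1.14 and 1.19. DESeq2 gave an adjusted p of 0.0475 for arrested over cycling, and no adjusted p for 6h_DMSO over arrested.

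With AZ20 at 4 h the 3 RBBP8 values lay below all 3 values with DMSO, a difference of -1.35 ± 0.39 that did not pass the test (adjusted p = 0.271, and 0.0537 with the block). Leaving out 1 library at a time moved that difference between -1.56 and -1.19. At 6 h the difference was -0.70 ± 0.51 (adjusted p = 1.00). The response at 6 h minus that at 4 h was 0.65 ± 0.66 (adjusted p = 1.00), so the responses at these times were not told apart. With DMSO alone RBBP8 differed by -1.03 ± 0.39 between 6 h and 4 h (adjusted p = 0.760), and by -0.47 ± 0.35 between 4 h and arrest (adjusted p = 0.773). In the authors' deposited table RBBP8 had a log2 fold change of 1.07 for arrested over cycling cells with an adjusted p of 0.0316, and 1.05 for arrested over 6h_DMSO with no adjusted p.

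NBN, the subunit that recruits the kinase ATM, has no opposite exon. Its levels were 14.8, 13.4 and 15.2 CPM in arrested cells, 10.03, 20.1 and 17.1 in 4h_ATRi, 19.97, 11.4 and 17.7 in 4h_DMSO, 11.2 and 13.5 in 6h_ATRi, 12.6, 6.03 and 8.22 in 6h_DMSO, and 9.75, 9.96 and 14.5 in cycling cells. The 6h_DMSO libraries lay below the arrested ones, a difference of -0.68 ± 0.34 (adjusted p = 0.430), and the difference to 4h_DMSO was -0.86 ± 0.33 (adjusted p = 0.760). RAD50, the clamp of the complex, lies opposite TH2LCRR and averaged 12.03 CPM over the 17 libraries, with 11 to 33 counts. MRE11, its nuclease, lies opposite ANKRD49 and averaged 8.41 CPM with 4 to 23 counts. RAD50 was 0.66 ± 0.36 higher in arrested than in cycling cells and MRE11 0.28 ± 0.39, and neither passed the test. The 4 resection genes together summed to 53.5 ± 6.67 CPM in arrested cells, 39.3 ± 3.42 in 4h_ATRi, 48.7 ± 10.2 in 4h_DMSO, 34.1 ± 4.02 in 6h_ATRi, 36.7 ± 5.40 in 6h_DMSO and 33.7 ± 3.88 in cycling cells.

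**Figure D5:**
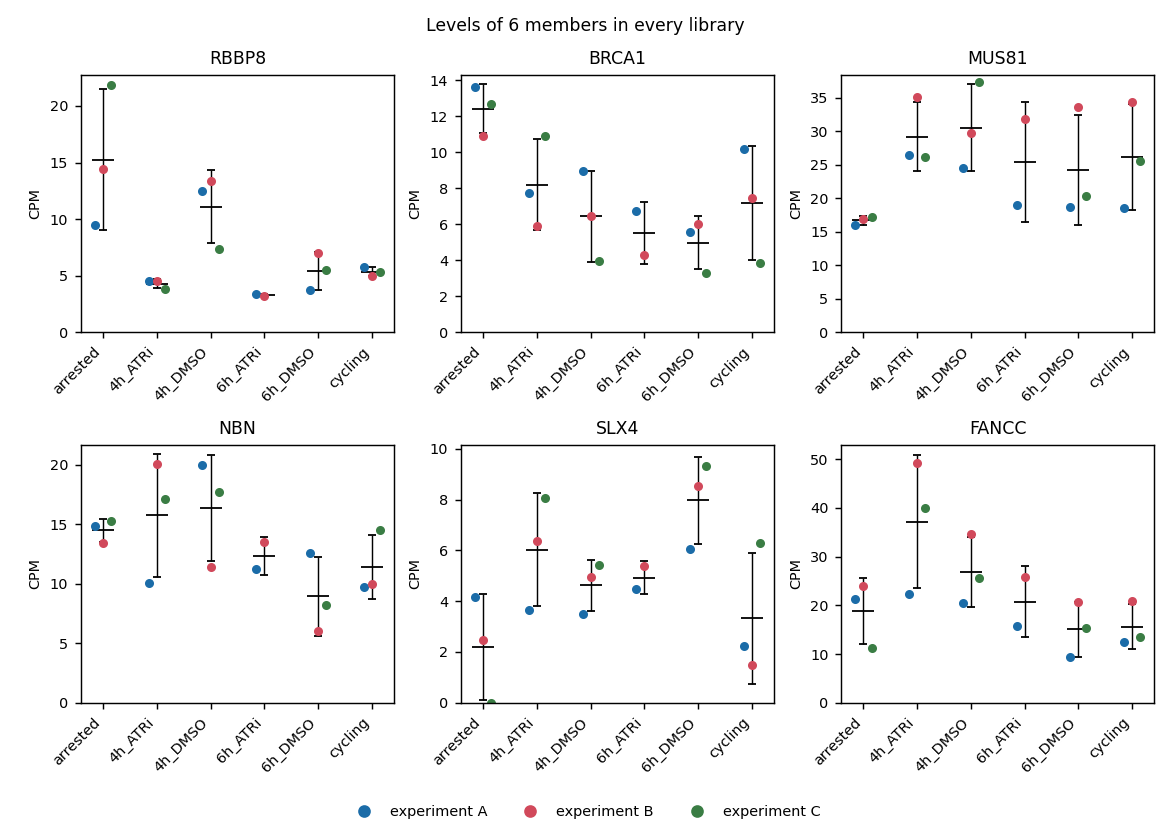
CPM of RBBP8, BRCA1, MUS81, NBN, SLX4 and FANCC in the 6 conditions; points are libraries coloured by experiment, bars the mean and SD. RBBP8 and BRCA1 have their highest means in arrested cells, and MUS81 and SLX4 their lowest.

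BRCA1 and BARD1 form the ubiquitin ligase that promotes resection, PALB2 links BRCA1 to BRCA2, and BRIP1 is a helicase bound to BRCA1. BRCA1 had 13.6, 10.9 and 12.7 CPM in arrested cells, 7.75, 5.93 and 10.9 in 4h_ATRi, and 8.98, 6.44 and 3.94 in 4h_DMSO. It had 6.72 and 4.31 CPM in 6h_ATRi, 5.59, 6.03 and 3.29 in 6h_DMSO, and 10.2, 7.47 and 3.86 in cycling cells. All arrested libraries were above all 6h_DMSO and cycling libraries. BRCA1 differed by -1.30 ± 0.42 between 6h_DMSO and arrested cells, which did not pass the test alone (adjusted p = 0.114) and did with the block (0.0199). Its difference between 4h_DMSO and arrested cells was -0.94 ± 0.40 (adjusted p = 0.417), and between arrested and cycling cells 0.78 ± 0.40 (0.539). Its opposite exon is that of a ribosomal protein pseudogene, RPL21P4, with a mean of 1.51 CPM, and it drew more counts than BRCA1 in 0 of 17 libraries.

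BARD1, BRCA2 and BRIP1 have no opposite exon and averaged 4.36, 3.08 and 5.48 CPM. BARD1 had 4.48 and 10.2 CPM in 6h_ATRi and 5.13, 2.51 and 4.38 in 6h_DMSO. Its 6h_ATRi B library stood apart, and the difference of 0.87 ± 0.62 (adjusted p = 1.00) changed sign to -0.09 without experiment B. BRCA2 had 0.560 and 3.77 CPM in 6h_ATRi and 6.06, 3.01 and 4.38 in 6h_DMSO, groups that overlap, with a difference of -1.02 ± 0.88 (adjusted p = 1.00). The difference between the 6 h and 4 h responses of BRCA2 was -1.46 ± 1.16 (adjusted p = 1.00). Without 6h_ATRi A these 2 values were -0.28 and -0.72, and without 6h_ATRi B they were -2.87 and -3.32. Between conditions without inhibitor BRCA2 differed by 0.62 ± 0.77 for arrested over cycling, 0.38 ± 0.73 for 6h_DMSO over arrested and 0.84 ± 0.75 for 6h_DMSO over 4h_DMSO, none past the test. BRIP1 varied less, with 7 to 16 counts a library. PALB2 had 0 to 3 counts a library and was not tested. The 5 genes summed to 27.8 ± 2.86 CPM in arrested cells, 22.5 ± 2.79 in 4h_ATRi, 20.5 ± 6.09 in 4h_DMSO, 19.7 ± 3.35 in 6h_ATRi, 18.4 ± 2.94 in 6h_DMSO and 18.5 ± 3.98 in cycling cells.

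XRCC2, XRCC3, RAD51B, RAD51C and RAD51D form complexes that assist strand exchange. XRCC3 had 197, 211 and 266 CPM in arrested cells, 275, 349 and 278 in 4h_ATRi, and 259, 294 and 284 in 4h_DMSO. It had 415 and 448 CPM in 6h_ATRi, 278, 371 and 343 in 6h_DMSO, and 226, 259 and 264 in cycling cells. The 6h_DMSO libraries lay above the arrested ones, with a difference of 0.56 ± 0.16 (adjusted p = 0.0614), which passed the test with the block (2.2e-05). DESeq2 called it, with an adjusted p of 0.0100. With single libraries left out and no block, edgeR called it in 2 of 6 fits (adjusted p from 0.0430 to 0.256). The 6h_ATRi libraries lay above the 6h_DMSO ones, a difference of 0.38 ± 0.17 that did not pass the test (adjusted p = 1.00, and 0.0539 with the block). In the authors' deposited table XRCC3 had -0.54 for arrested over 6h_DMSO with an adjusted p of 0.00565, a fold change with arrested cells on top.

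KLC1, opposite XRCC3, had 210.2, 192 and 186 CPM in 6h_DMSO against 290.1, 302 and 410.5 in arrested cells. It fell by 0.77 ± 0.16 (adjusted p = 0.00636), and was called in 4 of 6 fits with single libraries left out (adjusted p up to 0.0939). The features of this pair thus had opposite signs in that comparison, and what part the overlap has in either value was not tested. XRCC2 has no opposite exon and averaged 6.54 CPM. Its difference was 0.03 ± 0.43 for arrested over cycling, -0.58 ± 0.45 for 4h_DMSO over arrested and -0.48 ± 0.67 for the 6 h minus the 4 h response, none past the test. RAD51B, RAD51C and RAD51D had 0 to 9 counts in a library and were not tested.

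RAD54L and RAD54B are motor proteins that remodel joint molecules, and RAD51AP1 stimulates their formation. RAD54L had 39.7, 40.8 and 46.7 CPM in arrested cells, 37.8, 50.6 and 42.7 in 4h_ATRi, and 44.4, 43.6 and 56.1 in 4h_DMSO. It had 56.5 and 51.2 CPM in 6h_ATRi, 60.6, 47.7 and 54.8 in 6h_DMSO, and 74.0, 51.8 and 62.3 in cycling cells. All arrested libraries lay below all cycling ones, a difference of -0.56 ± 0.19 (adjusted p = 0.219) that passed the test with the block (0.0308). LRRC41, opposite RAD54L, had 152.4, 169 and 142 CPM in 6h_DMSO against 291, 263 and 310.4 in arrested cells. It fell by 0.90 ± 0.15 (adjusted p = 8.07e-04), and was called in 6 of 6 fits with single libraries left out. RAD54L differed by 0.36 ± 0.19 in that comparison (adjusted p = 0.488). With AZ20 at 4 h LRRC41 and KLC1 differed by -0.48 ± 0.15 and -0.43 ± 0.16, called lower only with the block (adjusted p = 0.00408 and 0.0139).

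BLM, TOP3A, RMI1 and RMI2 form the complex that dissolves double Holliday junctions without crossover. TOP3A, the topoisomerase, averaged 6.19 CPM, and differed by 0.26 ± 0.42 for 4h_DMSO over arrested (adjusted p = 0.933; 0.08 to 0.52 with single libraries left out) and by -0.43 ± 0.43 for 6h_DMSO over 4h_DMSO (1.00). BLM, the helicase, had 0 to 12 counts a library. It had 0.912, 5.02 and 1.90 CPM in 4h_ATRi and 0, 1.98 and 3.45 CPM in 4h_DMSO, which overlap, with a difference of 0.51 ± 0.87 (adjusted p = 1.00). BLM differed by -0.33 ± 0.82 for arrested over cycling and -0.61 ± 0.88 for 4h_DMSO over arrested. RMI1 and RMI2, the scaffold subunits, had 0 to 9 counts and were not tested. The complex summed to 14.3 ± 0.411 CPM in arrested cells and 12.5 ± 2.21 CPM in cycling cells, with every other condition between 11.1 and 14.6 CPM on average.

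SLX4 is the scaffold on which the nuclease MUS81 with its partner EME1 cuts joint molecules. SLX4 had 4.15, 2.49 and 0 CPM in arrested cells, 3.65, 6.39 and 8.07 in 4h_ATRi, and 3.49, 4.95 and 5.41 in 4h_DMSO. It had 4.48 and 5.39 CPM in 6h_ATRi, 6.06, 8.54 and 9.32 in 6h_DMSO, and 2.22, 1.49 and 6.28 in cycling cells. The 6h_DMSO libraries lay above the arrested ones, with a difference of 1.85 ± 0.63 (adjusted p = 0.154) that passed the test with the block (0.0215). The values rest on 0 to 17 counts, and its opposite feature ENSG00000261938 drew more counts in every library.

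MUS81 had 16.0, 16.9 and 17.3 CPM in arrested cells, 26.4, 35.1 and 26.1 in 4h_ATRi, and 24.5, 29.7 and 37.4 in 4h_DMSO. It had 19.0 and 31.8 CPM in 6h_ATRi, 18.6, 33.7 and 20.3 in 6h_DMSO, and 18.6, 34.4 and 25.6 in cycling cells. The 3 arrested libraries were the lowest of the 17, and the difference of 4h_DMSO over arrested was 0.86 ± 0.28 (adjusted p = 0.189), which passed the test with the block (0.0131). The difference of arrested over cycling cells was -0.64 ± 0.28 (adjusted p = 0.434). MUS81 lies opposite CFL1 and EFEMP2, with mean values of 141 and 22.2 CPM. EME1 had 346, 234 and 309.9 CPM in arrested cells, 306, 229 and 309.96 in 4h_ATRi, and 405, 287 and 336 in 4h_DMSO. It had 313 and 265 CPM in 6h_ATRi, 369, 302 and 349 in 6h_DMSO, and 413, 382 and 485 in cycling cells. All arrested libraries lay below all cycling ones, a difference of -0.52 ± 0.17 (adjusted p = 0.207) that passed the test with the block (3.1e-05). Within each experiment EME1 was lower in arrested than in cycling cells.

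The Fanconi core complex holds FANCA, FANCB, FANCC, FANCE, FANCF, FANCG, FANCL and FANCM, and UBE2T is the conjugating enzyme that works with FANCL. FANCA had 102, 89.5 and 109.7 CPM in arrested cells, 124, 129.1 and 129.6 in 4h_ATRi, and 105, 129.3 and 126.5 in 4h_DMSO. It had 160.1 and 139.6 CPM in 6h_ATRi, 137, 118 and 125 in 6h_DMSO, and 109.96, 94.1 and 118 in cycling cells. The 6h_ATRi libraries lay above the 6h_DMSO ones and the 6h_DMSO ones above the arrested ones, with differences of 0.25 ± 0.17 (adjusted p = 1.00) and 0.33 ± 0.15 (0.385) that did not pass the test, with or without the block. ZNF276, opposite FANCA, differed by -0.49 ± 0.15 in 6h_DMSO relative to arrested cells (adjusted p = 0.0800 in edgeR), and was called lower with the block (3.6e-04) and by DESeq2 (0.0117).

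FANCC, an adaptor of the core complex, had 21.4, 23.9 and 11.2 CPM in arrested cells, 22.3, 49.3 and 39.9 in 4h_ATRi, and 20.5, 34.7 and 25.6 in 4h_DMSO. It had 15.7 and 25.9 CPM in 6h_ATRi, 9.32, 20.6 and 15.3 in 6h_DMSO, and 12.4, 20.9 and 13.5 in cycling cells. In each of experiments A, B and C, FANCC was higher in 4h_ATRi than in 4h_DMSO, by a fitted 0.46 ± 0.32 (adjusted p = 1.00, and 0.473 with the block). Its value at 6 h with DMSO differed by -0.84 ± 0.35 from that at 4 h (adjusted p = 0.844, and 0.0736 with the block). FANCL had 206, 109 and 177 CPM in arrested cells, 115, 103 and 116 in 4h_ATRi, and 158, 117 and 148 in 4h_DMSO. It had 146 and 109.4 CPM in 6h_ATRi, 172, 143 and 169.9 in 6h_DMSO, and 192, 162 and 204 in cycling cells. In each experiment FANCL was lower with AZ20 than with DMSO, at 4 h (A, B and C) and at 6 h (A and B), by a fitted -0.34 ± 0.19 and -0.34 ± 0.22 (adjusted p = 0.977 and 1.00, and 0.185 and 0.565 with the block). FANCL did not pass the test in any comparison.

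VRK2, opposite FANCL, had 98.3, 90.7 and 80.7 CPM in 4h_DMSO and 96.9, 97.9 and 65.8 CPM in 6h_DMSO, against 161, 139 and 187 CPM in arrested cells. It fell by 0.85 ± 0.18 at 4 h (adjusted p = 0.0210) and by 0.90 ± 0.18 at 6 h (adjusted p = 0.00463). With single libraries left out edgeR called VRK2 in 3 of 6 fits at 4 h (adjusted p up to 0.164). At 6 h it was called in 4 of 6 (up to 0.0648). FANCG, without an opposite exon, averaged 4.93 CPM and differed by 0.52 ± 0.51 with AZ20 at 4 h (adjusted p = 1.00), or by 0.24 without 4h_ATRi A and 0.93 without 4h_DMSO C. UBE2T, without one, had 0.560 and 9.70 CPM in 6h_ATRi against 3.26, 5.02 and 1.64 CPM in 6h_DMSO. Its fitted difference of 0.62 ± 0.94 (adjusted p = 1.00) was set by 6h_ATRi B and turned to -2.44 without that library. UBE2T differed by -0.46 ± 0.97 with AZ20 at 4 h, 0.30 ± 0.97 for 4h_DMSO over arrested, 0.92 ± 0.94 for 6h_DMSO over arrested, 0.62 ± 0.91 for 6h_DMSO over 4h_DMSO, and 1.08 ± 1.35 for the 6 h minus the 4 h response. It had 1 to 18 counts a library. FANCB, FANCE, FANCF and FANCM had 0 to 11 counts and were not tested.

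FANCD2 and FANCI form the clamp that the core complex marks with ubiquitin. FANCI had 142, 145 and 142 CPM in arrested cells, 147, 140.04 and 131 in 4h_ATRi, and 154, 145 and 132 in 4h_DMSO. It had 161 and 149.3 CPM in 6h_ATRi, 143, 128 and 134 in 6h_DMSO, and 136, 142 and 147 in cycling cells. Over the 17 libraries its SD was 8.58 CPM around the mean of 142, and its fitted differences in the comparisons lay between -0.09 and 0.25. FANCD2 had 4 to 17 counts a library and differed by 0.70 ± 0.48 for 4h_DMSO over arrested (adjusted p = 0.731). With the block POLG and FANCD2OS were called lower in 6h_DMSO than in arrested cells (adjusted p = 2.6e-04 and 0.0443), and FANCI and FANCD2 were not (0.789 and 0.656).

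Of 66 other genes of recombination and crosslink repair, 45 passed the filter, and edgeR called 0 of them in each of the 7 comparisons. At an unadjusted p under 0.05 there were 1 with AZ20 at 4 h, 3 at 6 h, 0 for the difference of responses, 3 for arrested over cycling, 5 for 4h_DMSO over arrested, 7 for 6h_DMSO over arrested and 1 for 6h_DMSO over 4h_DMSO, and DESeq2 called 0 in all 7. Over all features the shares at that threshold were 5.596%, 4.80%, 2.97%, 9.89%, 9.67%, 11.9% and 4.97% in the same order. With the block, EME2 and ZSWIM7 were higher and ERCC1, ABRAXAS1 and UHRF1 lower in arrested than in cycling cells. These were 2 higher and 3 lower of 45, beside 5.64% of all features. For 4h_DMSO over arrested there were 1 higher and 2 lower of 45 with the block, beside 4.77%. For 6h_DMSO over arrested there was 1 lower of 45, beside 7.71%. TP53BP1, the protein that blocks resection, was lower with the block at 4 h and at 6 h of release than in arrested cells, by 0.41 and 0.51 on the log2 scale (adjusted p = 0.00758 and 2.7e-04). ERCC1, the partner of the crosslink nuclease ERCC4, was higher at 4 h of release than in arrested cells with the block, by 0.51 (adjusted p = 1.5e-04), and ZSWIM7, a recombination factor, was lower (0.0158). All of these but UHRF1 have an exon overlapped on the opposite strand, so whether their counts belong to them or to the partner cannot be told apart.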

How the data were processed

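The submitters' processing notes name TopHat, the build GRCh37, HTSeq and DESeq2; their versions, the gene annotation and how strand was set were not given in the sources used here. The authors deposited whole-number read counts per gene, not normalised, from KAPA Stranded mRNA-Seq libraries (per the labels' protocols). A second table the authors deposited holds log2 fold changes and an adjusted p-value for 6 comparisons. All 17 count columns were used; for 6h_ATRi, experiment C was not analysed here. Column letters were taken as the experiments of the design text.

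Features kept by filterByExpr (minimum count 10, minimum total 15) were fitted with edgeR 4.0.16 in R 4.3.3 (TMM factors, robust glmQLFit, glmQLFTest, a mean per condition), checked on simulated data. The fit was repeated with the letter as a replicate block. Libraries sharing a letter deviated together from their condition means, with correlations across genes from 0.138 to 0.534 in 17 pairs. Between different letters the correlations ran from -0.455 to 0.262, so the ranges overlap. Libraries A and C correlated positively across conditions, and B negatively with both. For example, 4h_DMSO A had 0.262 with arrested C and 0.203 with arrested A. The pairing of A and C by letter is therefore less clear than that of B. The common coefficient of variation was 0.119 with the block and 0.23 without, with 9 and 11 residual degrees of freedom. P-values measure the spread between these libraries. DESeq2 1.42.0 was an alternative, as were other normalisation, filters and libraries left out. CPM were scaled by the TMM effective library size; errors are SD for CPM and SE for log2 fold changes. Names came from a gene name list (55528 IDs matched). GENCODE for GRCh38, which held 55951 of the IDs, gave names missing there and opposite-strand overlaps, with no coordinates. Upstream windows came from RefSeq promoters on GRCh38.p14. Members and lists were chosen with earlier results of these data known. Named genes were those called with or without the block, and in each comparison the 2 largest rises and 2 largest falls among tested genes without an opposite exon.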

Additional observations from a re-analysis of the deposited data

How the results depend on the processing

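The count of called genes stayed at 0 for AZ20 at 4 h, AZ20 at 6 h, the difference between these responses, and 6h_DMSO over 4h_DMSO under every alternative run. For arrested over cycling cells it was 1, and 3 with the replicate block, 0 with no filter on low counts, 0 with a minimum count of 30, 0 without experiment B, 2 with the block and without experiment B, and 0 to 1 with single libraries left out. For 6h_DMSO over arrested cells it was 1, and 4 with the block, 0 with no filter, 3 without experiment B, 3 with the block and without experiment B, and 0 to 1 with single libraries left out. For 4h_DMSO over arrested cells it was 0, and 1 with the block. The share of all features called also rose with the block. It went from 1.03% to 5.64% for arrested over cycling and from 2.32% to 7.71% for 6h_DMSO over arrested. For 4h_DMSO over arrested it went from 0.74% to 4.77%. Shares for the other runs are not given here, so their counts have no background beside them. RBBP8 kept its sign in every alternative run in each of these comparisons.

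The median over the tested genes depended on which genes entered. For arrested over cycling it was 0.20, and 0.282 with no filter and -0.0517 with a minimum count of 30. For 4h_DMSO over arrested it was 0.02, and -0.0896 with no filter, 0.188 with a minimum count of 30 and -0.277 over genes without an opposite exon. For 6h_DMSO over 4h_DMSO it was 0.07, and -0.0796 with no filter, -0.0107 with a minimum count of 30 and 0.210 over genes without an opposite exon.

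Single genes that changed sign were low in counts and did not pass the test. With single libraries left out, BLM with AZ20 at 4 h ran from -0.0498 (without 4h_DMSO A) to 1.35. UBE2T ran from -2.44 to 1.503 with AZ20 at 6 h and from -1.997 to 1.96 for the difference of responses, both lowest without 6h_ATRi B, and from -0.0501 (without arrested A) to 1.34 for 4h_DMSO over arrested. XRCC2 for arrested over cycling ran from -0.0547 (without cycling A) to 0.191, with -0.0151 without arrested B; it was -0.0372 without experiment B and -0.0427 with the block as well. BARD1 with AZ20 at 6 h was -0.0918 without experiment B and -0.242 with the block as well. The cause was not tested. In some of these fits BLM and UBE2T did not pass the filter and have no value. Leaving out experiment B or a 6h_ATRi library leaves 1 library of 6h_ATRi, which is then assumed to vary like the others. Genes without an opposite exon had 0 to 44 counts a library, which limits what could be detected.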
